A study of Rattus norvegicus with 16 samples.

Results

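Nucleic acid sensing in sorted microglia was followed through 10 genes: Tlr3, Tlr7 and Tlr9, which encode endosomal Toll-like receptors; Unc93b1, which encodes their transport chaperone; Cgas and Sting1; the kinase genes Tbk1 and Ikbke; and the transcription factor genes Irf3 and Irf5. The 10 were taken by symbol from the series count table, which holds 21842 symbols. Each had 1 Ensembl gene ID (Tlr3 ENSRNOG00000021726, Tlr7 ENSRNOG00000004249, Tlr9 ENSRNOG00000048161, Unc93b1 ENSRNOG00000017703, Cgas ENSRNOG00000046191, Sting1 ENSRNOG00000042137, Tbk1 ENSRNOG00000005528, Ikbke ENSRNOG00000025100, Irf3 ENSRNOG00000043388, Irf5 ENSRNOG00000007437), and all 10 were among the 13608 genes tested. Microglia, the macrophages that reside in brain tissue, were sorted from whole brains of male Wistar (Hsd/Cpb:WU) rats by a gate on DAPI-negative cells (CD11b high, CD45 intermediate), and their RNA was sequenced in bulk. The irradiated LPS group had received 14 Gy of X-rays and an intraperitoneal injection of lipopolysaccharide (LPS, a cell wall component of Gram-negative bacteria) 6 weeks later, and the irradiated PBS group had received 14 Gy and the saline vehicle. The sham LPS group had received sham irradiation and LPS, and the sham PBS group sham irradiation and vehicle. There were 4 libraries a group and 16 in all. The labels do not name the animals or say whether brains were pooled, so p-values cover only the variation among these libraries, which may be technical. The sources used here do not give the LPS dose, the time from injection to sorting or the rats' age.

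Endosomal Toll-like receptors read nucleic acids taken up from outside the cell: TLR3 binds long RNA duplexes, TLR7 binds RNA with unpaired strands, and TLR9 binds DNA rich in unmethylated CpG. UNC93B1 escorts them from the endoplasmic reticulum to endosomes. In the cytosol cGAS binds DNA and makes the messenger cGAMP, which activates STING, and STING recruits TBK1 and the related kinase IKK-epsilon (encoded by Ikbke) to phosphorylate IRF3, a factor that switches on type I interferon genes. IRF5 acts mainly downstream of TLR7 and TLR9 and drives inflammatory cytokine genes. In microglia these receptors are known as sensors of viruses and of nucleic acids released from damaged cells.

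RefSeq promoters (build GRCr8, 250 bases before to 50 after the gene start, written in the direction of the gene) were matched for 7 of the 10 genes, and 4 of them are shown because their genes followed the 4 different patterns described below. Tlr7 (chrX:30644176-30644475, plus strand) was higher with LPS and lower after irradiation, Tlr9 (chr8:115743157-115743456, plus strand) was lower with LPS, Sting1 (chr18:27612399-27612698, minus strand) was lower after irradiation, and Irf5 (chr4:59093205-59093504, plus strand) was lower with both. Capitals mark the motifs found.
Tlr7: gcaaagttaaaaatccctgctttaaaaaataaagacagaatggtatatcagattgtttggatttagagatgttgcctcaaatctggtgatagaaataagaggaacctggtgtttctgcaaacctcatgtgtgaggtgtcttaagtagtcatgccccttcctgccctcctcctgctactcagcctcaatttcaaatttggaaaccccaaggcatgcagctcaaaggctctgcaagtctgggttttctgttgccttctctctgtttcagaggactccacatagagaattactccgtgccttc
Tlr9: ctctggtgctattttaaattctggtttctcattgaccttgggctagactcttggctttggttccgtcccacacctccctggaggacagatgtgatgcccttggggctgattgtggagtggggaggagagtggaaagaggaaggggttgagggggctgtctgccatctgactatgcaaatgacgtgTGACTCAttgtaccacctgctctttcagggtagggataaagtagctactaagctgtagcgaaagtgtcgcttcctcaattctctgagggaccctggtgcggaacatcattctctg
Sting1: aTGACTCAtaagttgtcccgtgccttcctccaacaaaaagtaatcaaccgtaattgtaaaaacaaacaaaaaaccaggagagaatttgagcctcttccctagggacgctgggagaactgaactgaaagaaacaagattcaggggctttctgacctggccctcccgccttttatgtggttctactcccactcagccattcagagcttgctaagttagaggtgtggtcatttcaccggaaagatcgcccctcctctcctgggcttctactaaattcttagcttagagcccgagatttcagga
Irf5: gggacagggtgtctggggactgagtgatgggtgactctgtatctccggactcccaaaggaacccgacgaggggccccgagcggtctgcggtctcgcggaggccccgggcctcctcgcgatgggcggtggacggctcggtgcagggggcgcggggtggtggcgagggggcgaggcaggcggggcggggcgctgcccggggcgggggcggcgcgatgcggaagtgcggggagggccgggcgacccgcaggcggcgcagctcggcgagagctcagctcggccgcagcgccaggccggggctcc
Motifs searched on both strands were GAAANNGAA (core of the interferon-stimulated response element), GGGANNTTC (kB site), TGANTCA (AP-1 site) and GAGGAAGT (PU.1 site). They are present in 9.71%, 4.05%, 7.33% and 2.42% of the 33469 promoters of the table. An AP-1 match lies at base 186 of the Tlr9 promoter and another at base 2 of the Sting1 promoter, counted from the 5′ end, and no match overlaps another. The Irf3 promoter, not shown, has a kB match on the opposite strand at base 223. The promoters of Tlr7, Irf5, Tlr3 and Tbk1 hold none of the 4 motifs. A match is a description of the letters only.

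Total counts ranged from 18997145 to 62745496 in irradiated LPS libraries, from 14309458 to 25015047 in irradiated PBS libraries, from 16573558 to 19785105 in sham LPS libraries and from 16849603 to 22482126 in sham PBS libraries. Levels are CPM, the count relative to the library's total, scaled with TMM factors, given as mean ± SD (n = 4 libraries a group). Changes are log2 fold changes ± SE from edgeR, and a gene rose or fell if its adjusted p was under 0.05. Of 8 microglial markers 7 were detected in every library and tested. All 7 fell after irradiation with LPS and with PBS, where 12.6% and 9.91% of all tested genes fell. LPS lowered 4 of the 7 in sham rats and 6 of the 7 in irradiated rats, where 14.5% of all tested genes fell in each. The other marker, Siglech, was at 0 in 12 of the 16 libraries, did not exceed 0.512 CPM and did not pass the filter on low counts. The summed CPM of the microglial list (8 genes) was 14100 to 18400 in irradiated LPS, 19900 to 25300 in irradiated PBS, 34600 to 38600 in sham LPS and 43800 to 47100 in sham PBS libraries. Border-associated macrophage markers (7 genes) summed to 2950 to 4110, 1100 to 1370, 460 to 983 and 350 to 399 CPM in the same order of groups, and monocyte markers (6 genes) to 534 to 826, 390 to 456, 278 to 374 and 145 to 221 CPM. Neutrophil markers (7 genes) summed to 361 to 2220 CPM in irradiated LPS libraries, with library 1 at 2220, and to 229 to 302, 243 to 294 and 322 to 403 CPM in irradiated PBS, sham LPS and sham PBS libraries. In irradiated LPS 6 of the 7 were higher than in irradiated PBS (17% of all tested genes), and 6 of the 7 higher than in sham LPS (15.1%). The marker Csf3r made up most of the sums outside irradiated LPS. It had 183 to 206 CPM in irradiated LPS, 189 to 228 in irradiated PBS, 213 to 229 in sham LPS and 300 to 358 in sham PBS libraries. T and NK cell markers (9 genes found) summed to 393 to 895 CPM in irradiated LPS, 53.2 to 104 in irradiated PBS, 18.1 to 173 in sham LPS and 7.23 to 16.6 in sham PBS libraries. Irradiation raised 8 of the 9 with LPS (15.1% of all tested genes) and 9 of the 9 with PBS (11.5%). Neuronal markers (6 genes) were highest in the libraries numbered 1 of irradiated LPS (124 CPM) and irradiated PBS (78.7 CPM), against 8.82 to 39.5 CPM in the other 14. In bulk samples fewer cells of a type and less RNA per cell cannot be told apart, and the part of cell makeup in the changes below was not tested.

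LPS and irradiation each changed part of the set, and Tlr3, Tlr7 and Irf5 responded to both. In sham rats LPS raised Tlr7 and Cgas and lowered Tlr3, Tlr9, Ikbke and Irf5: 2 of 10 rose and 4 of 10 fell, where 15.2% of all tested genes rose and 14.5% fell. In irradiated rats LPS raised Tlr7, Cgas and Tbk1 and lowered Tlr3, Tlr9 and Irf5, 3 in each direction, where 17% of all tested genes rose and 14.5% fell. Irradiation lowered Tlr3, Tlr7, Sting1 and Irf5 in rats given PBS, with 0 of 10 higher and 4 of 10 lower against 11.5% and 9.91% of all genes. In rats given LPS it lowered the same 4 genes and raised Tbk1, against 15.1% of all genes higher and 12.6% lower. Median changes over the 10 members were -0.09 and -0.06 on the log2 scale for LPS in sham and in irradiated rats, and -0.28 and -0.20 for irradiation with PBS and with LPS. Medians over all tested genes lay between -0.02 and 0.01 in these 4 comparisons.

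**Figure D1:**
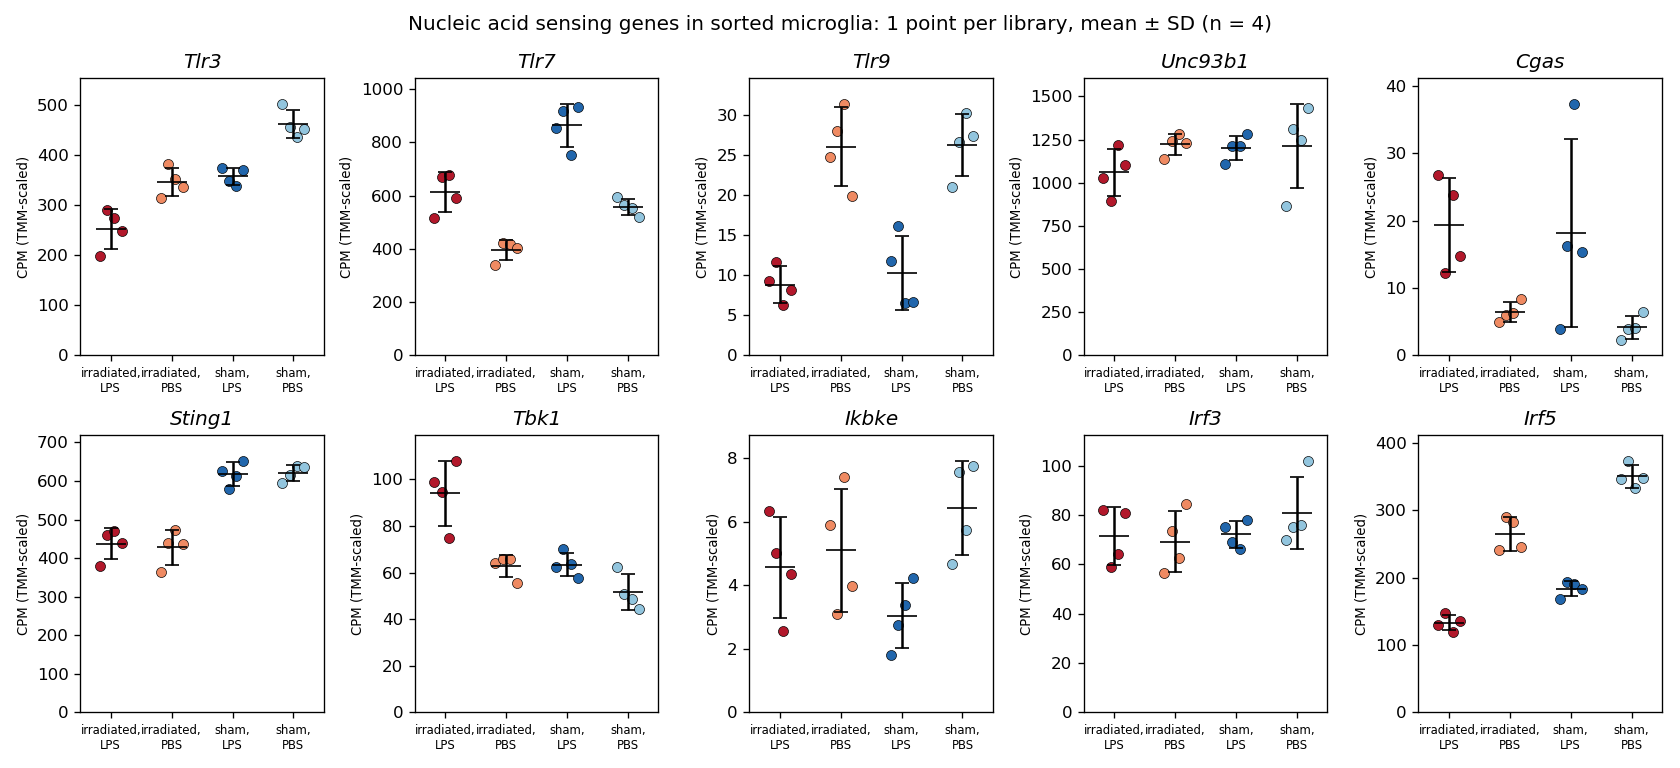
Level of each gene (TMM-scaled CPM, axis from 0) in every library of the 4 groups, with mean and SD. Tlr7 libraries are higher with LPS at either irradiation state, Tlr9 and Irf5 libraries are lower with LPS, and Sting1 libraries separate by irradiation alone, with 365 to 473 CPM in irradiated and 580 to 653 CPM in sham libraries.

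Tlr7 was raised by LPS and lowered by irradiation, by nearly the same amount whichever way the other factor stood. Its libraries had 515, 670, 677 and 590 CPM in irradiated LPS, 339, 422, 419 and 404 CPM in irradiated PBS, 853, 919, 753 and 931 CPM in sham LPS, and 594, 566, 552 and 518 CPM in sham PBS. All sham LPS libraries lay above all sham PBS libraries, all irradiated LPS libraries lay above all irradiated PBS libraries, and irradiated LPS overlapped sham PBS. LPS raised Tlr7 by 0.63 ± 0.10 in irradiated rats (edgeR adjusted p = 7.85e-05) and by 0.63 ± 0.10 in sham rats (9.63e-05), 1.55-fold each. Irradiation changed it by -0.50 ± 0.10 with LPS (0.000871) and by -0.49 ± 0.10 with PBS (0.00129). From high to low the groups were sham LPS (864 ± 81.6 CPM), irradiated LPS (613 ± 76.3), sham PBS (557 ± 31.8) and irradiated PBS (396 ± 38.9). Only the second and the third of these did not differ in the test of neighbours, irradiated LPS against sham PBS giving 0.14 ± 0.10 (edgeR adjusted p = 0.274).

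Tlr3 fell with each factor. It had 199, 290, 273 and 248 CPM in irradiated LPS libraries and 314, 382, 351 and 336 CPM in irradiated PBS libraries. In sham LPS libraries it had 373, 348, 337 and 370 CPM, and in sham PBS libraries 502, 455, 436 and 451 CPM. The sham PBS libraries lay above all 12 others, and the irradiated LPS libraries below all others. LPS lowered Tlr3, with changes of -0.45 ± 0.10 in irradiated rats (edgeR adjusted p = 0.00179) and -0.37 ± 0.10 in sham rats (0.00857). Irradiation lowered it too, with changes of -0.50 ± 0.10 with LPS (0.000895) and -0.41 ± 0.10 with PBS (0.00534). The middle groups, irradiated PBS (346 ± 28.7 CPM) and sham LPS (357 ± 17.3 CPM), overlapped and were not called different (edgeR adjusted p = 0.757). With both factors the level was 253 ± 39.6 CPM against 461 ± 28.6 CPM in sham PBS, a change of -0.87 ± 0.10 (edgeR adjusted p = 1.17e-06).

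Tlr9 fell with LPS and showed no called change with irradiation. It had 9.28, 11.7, 6.26 and 8.11 CPM in irradiated LPS against 24.8, 28, 31.4 and 19.9 CPM in irradiated PBS libraries, a change of -1.56 ± 0.26 (edgeR adjusted p = 0.000167). In sham rats it had 11.8, 16.1, 6.53 and 6.67 CPM with LPS against 21, 26.6, 30.2 and 27.3 CPM with PBS, a change of -1.35 ± 0.26 (0.000786). The LPS libraries of each pair lay entirely below the PBS libraries, by 2.94-fold in irradiated and 2.55-fold in sham rats, the largest falls among the 10 genes in both comparisons. For irradiation the change was -0.22 ± 0.26 with LPS (95% interval -0.77 to 0.33) and -0.01 ± 0.25 with PBS (-0.55 to 0.52). TLR9 is also known from B cells and plasmacytoid dendritic cells. The B cell marker list (7 genes) summed to 32.7 to 65.8 CPM in irradiated LPS, 98 to 148 in irradiated PBS, 9.48 to 12.7 in sham LPS and 57 to 84.2 in sham PBS libraries. Ighm made up most of it, with 24 to 39.3, 91.7 to 139, 5.18 to 8.71 and 52.9 to 81.6 CPM in the same order of groups. Cd79a, Cd79b and Blk, at no more than 9.13 CPM, overlapped between LPS and PBS libraries in sham and in irradiated rats. Ms4a1 had 0.229 to 1.21 CPM in sham LPS against 0 to 0.199 in sham PBS libraries, and overlapped in irradiated rats. Pax5 was at 0 in 15 of the 16 libraries. The dendritic and plasmacytoid dendritic cell list (8 genes) summed to 146 to 168 CPM in irradiated LPS, 126 to 156 in irradiated PBS, 158 to 205 in sham LPS and 98.8 to 122 in sham PBS libraries. The sums were higher with LPS in sham rats and overlapped in irradiated rats. In this list Pacsin1 had 44.8 to 62.3, 23.4 to 35.3, 105 to 132 and 41.8 to 57.1 CPM in the same order of groups. Flt3 had 5.45 to 14.5, 14.6 to 21.7, 1.52 to 3.31 and 3.59 to 6.44 CPM. Xcr1 had 5.34 to 16.6, 10.1 to 26.4, 0.496 to 3.1 and 3.56 to 7.92 CPM. Clec9a had 9.4 to 27.2, 5.8 to 14.1, 1.05 to 2.06 and 0.69 to 2.94 CPM, and Zbtb46 did not exceed 3.66 CPM. Tcf4 had 41.7 to 74.4 CPM over all libraries. Spib and Ccr9 were at 0 in 9 and 7 libraries, neither above 1.93 CPM. Of 7 tested, LPS raised 1 and lowered 2 in sham rats (15.2% and 14.5% of all genes) and 1 and 1 in irradiated rats (17% and 14.5%). The part of such cells in the Tlr9 change was not tested.

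Unc93b1, the shared transport chaperone gene, was called in none of the 4 comparisons. It ranged from 892 to 1220 CPM in irradiated LPS, 1140 to 1280 in irradiated PBS, 1110 to 1280 in sham LPS and 863 to 1430 in sham PBS libraries, and all groups overlapped. LPS gave -0.20 ± 0.12 in irradiated rats (edgeR adjusted p = 0.227) and -0.01 ± 0.12 in sham rats (0.967), and irradiation -0.18 ± 0.12 with LPS (0.305) and 0.01 ± 0.12 with PBS (0.959).

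Cgas rose with LPS but varied widely between libraries, on 38 to 764 counts each. It had 26.8, 12.2, 23.8 and 14.8 CPM in irradiated LPS against 4.98, 5.94, 6.3 and 8.42 CPM in irradiated PBS libraries, which did not overlap. In sham rats it had 3.95, 16.2, 37.4 and 15.3 CPM with LPS against 2.31, 3.89, 4 and 6.48 CPM with PBS. Sham LPS library 1 lay within the PBS range while the other 3 were above it. LPS raised Cgas by 1.59 ± 0.49 in irradiated rats (3-fold, edgeR adjusted p = 0.0205) and by 2.12 ± 0.50 in sham rats (4.34-fold, 0.00451). Without sham LPS library 3 the second value was 1.49 (edgeR adjusted p = 0.0168). In irradiated rats the call was lost without irradiated LPS library 1 (edgeR adjusted p = 0.0553), without irradiated LPS library 3 (0.05), without irradiated PBS library 1, 2 or 3 (0.058, 0.0528 and 0.0511), and without both irradiated libraries numbered 1 (0.113). Irradiation gave 0.09 ± 0.47 with LPS (0.921) and 0.62 ± 0.49 with PBS (0.425). T and NK cell markers varied among the same sham LPS libraries, at 18.1, 66.7, 173 and 150 CPM. In irradiated LPS libraries they reached 393 to 895 CPM. Mean Cgas was 19.4 ± 6.98 CPM in irradiated LPS and 18.2 ± 13.9 CPM in sham LPS libraries. The part of T and NK cells in the Cgas spread was not tested. Genes known to respond to interferon followed a like order in libraries 1 to 4 of sham LPS, with Irf7 at 20.3, 74.6, 131 and 88 CPM and Oas1a at 3.64, 7.4, 17.7 and 8.37 CPM. They did not in irradiated LPS libraries 1 to 4, with Irf7 at 561, 470, 315 and 419 CPM and Oas1a at 83.3, 69.4, 47.2 and 74.7 CPM. Both were lowest in library 3 of that group, where Cgas had 23.8 CPM, above libraries 2 and 4. Whether these genes and Cgas share a cause was likewise not tested.

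Sting1, whose protein receives the cGAS signal, separated the libraries by irradiation and not by LPS. It had 380, 460, 470 and 440 CPM in irradiated LPS and 365, 440, 473 and 437 CPM in irradiated PBS libraries. It had 626, 580, 613 and 653 CPM in sham LPS and 594, 615, 638 and 636 CPM in sham PBS libraries. All 8 irradiated libraries lay below all 8 sham libraries. With irradiation it changed by -0.50 ± 0.08 with LPS (edgeR adjusted p = 0.000188) and by -0.53 ± 0.08 with PBS (0.000149), or 1.41-fold and 1.45-fold lower. LPS gave 0.03 ± 0.08 in irradiated rats (95% interval -0.15 to 0.21) and -0.01 ± 0.08 in sham rats (-0.18 to 0.17).

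Of the kinase genes, Tbk1 was highest where both factors were present. It had 98.9, 94.4, 74.9 and 108 CPM in irradiated LPS, 64.2, 65.7, 65.6 and 55.5 CPM in irradiated PBS, 62.3, 69.9, 63.5 and 57.7 CPM in sham LPS, and 62.3, 50.6, 48.7 and 44.2 CPM in sham PBS libraries. The irradiated LPS libraries lay above the other 12, whose groups overlapped each other. LPS raised Tbk1 by 0.58 ± 0.12 in irradiated rats (1.5-fold, edgeR adjusted p = 0.001), while in sham rats the value was 0.30 ± 0.12 (0.0669). Irradiation raised it by 0.57 ± 0.12 with LPS (0.00139), while with PBS the value was 0.29 ± 0.12 (0.102). Against sham PBS the level with both factors was 1.83-fold higher (0.87 ± 0.12, edgeR adjusted p = 9.9e-06). The test of the difference between the LPS responses did not call it (0.28 ± 0.17, 95% interval -0.07 to 0.64, edgeR adjusted p = 0.574).

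Ikbke was measured with few reads, 30 to 310 counts a library. It had 6.35, 5.03, 2.55 and 4.35 CPM in irradiated LPS, 5.91, 3.11, 7.41 and 3.97 in irradiated PBS, 1.82, 2.76, 3.38 and 4.24 in sham LPS and 4.68, 7.57, 5.75 and 7.77 in sham PBS libraries. LPS lowered it in sham rats, with a change of -1.08 ± 0.34 (2.11-fold, edgeR adjusted p = 0.0238), with groups that did not overlap. That call was lost without sham LPS library 1 (0.0703) or 2 (0.056) and without sham PBS library 2 (0.0623) or 4 (0.065). In irradiated rats LPS gave -0.16 ± 0.33 (0.768), and irradiation gave 0.58 ± 0.34 with LPS (0.235) and -0.34 ± 0.34 with PBS (0.53).

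The transcription factor genes differed from each other. Irf5 had 130, 148, 120 and 136 CPM in irradiated LPS against 241, 290, 283 and 246 CPM in irradiated PBS libraries. In sham rats it had 169, 193, 190 and 183 CPM with LPS against 347, 374, 333 and 348 CPM with PBS. The 4 groups did not overlap in any pair. LPS lowered Irf5, with changes of -0.99 ± 0.08 in irradiated rats (1.98-fold, edgeR adjusted p = 8.97e-08) and -0.93 ± 0.08 in sham rats (1.9-fold, 2.6e-07). Its changes with irradiation were -0.46 ± 0.08 with LPS (0.000363) and -0.40 ± 0.08 with PBS (0.00171). With both factors it was 2.62-fold lower than in sham PBS (-1.39 ± 0.08, edgeR adjusted p = 4.68e-10). Irf3 was called in none of the comparisons. It averaged 71.4 ± 11.6 CPM in irradiated LPS, 69.2 ± 12.5 in irradiated PBS, 72.2 ± 5.4 in sham LPS and 80.6 ± 14.2 in sham PBS libraries. Its changes lay between -0.22 ± 0.14 for irradiation with PBS and 0.04 ± 0.14 for LPS in irradiated rats (edgeR adjusted p at least 0.313).

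**Figure D2:**
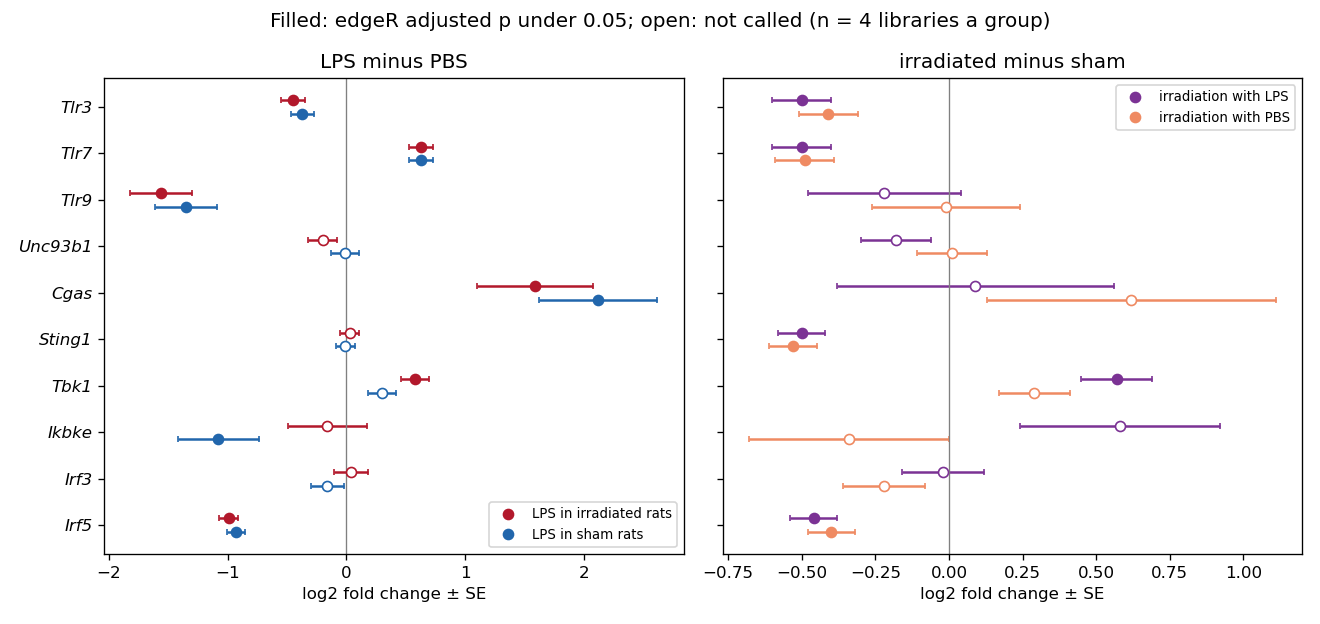
Log2 fold change ± SE of each gene for LPS minus PBS (left) and irradiated minus sham (right), with filled points for an edgeR adjusted p under 0.05. Tlr7 is at 0.63 in both LPS comparisons and Sting1 at -0.50 and -0.53 in both irradiation comparisons.

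Whether irradiation had altered the response to LPS was tested with the interaction term. It called 0 of the 10 genes, where 0.61% of all tested genes had a higher and 0.647% a lower response in irradiated rats. None of the 10 had an unadjusted p under 0.05 in edgeR, and DESeq2 and limma voom called 0 as well. The intervals of the difference were narrow for Tlr7 (0.00 ± 0.14, 95% interval -0.29 to 0.29), Sting1 (0.03 ± 0.12, -0.21 to 0.28) and Irf5 (-0.06 ± 0.12, -0.31 to 0.19). The intervals were wide for Cgas (-0.53 ± 0.68, -1.98 to 0.92) and Ikbke (0.92 ± 0.48, -0.09 to 1.92), so that sizeable differences in their responses were not detectable at this spread.

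Set directly against sham PBS, the irradiated LPS group had 2 of the 10 genes higher (Cgas and Tbk1) and 4 lower (Tlr3, Tlr9, Sting1 and Irf5), where 23.9% of all genes were higher and 21.5% lower. Set against sham LPS, the irradiated PBS group had Tlr9 (1.34 ± 0.26, edgeR adjusted p = 0.000586) and Irf5 (0.53 ± 0.08, 7.21e-05) higher and Tlr7 (-1.13 ± 0.10, 9.97e-08), Sting1 (-0.53 ± 0.08, 7.76e-05) and Cgas (-1.50 ± 0.49, 0.0239) lower. Of all genes 18.4% were higher and 18.8% lower in that comparison. The groups overlapped for Cgas, and without sham LPS library 3 the value was -0.88 and no longer called (edgeR adjusted p = 0.126). The call was also lost without irradiated PBS library 1, 2 or 3 (0.0664, 0.0577 and 0.0544) and in voom (0.164).

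By Pearson correlation of log2 CPM over the 16 libraries, which fall into 4 groups, the genes most like each member were Terf2ip and B4gat1 for Tlr3 (0.968 and 0.966), Copb1 and Ifngr1 for Tlr7 (0.974 and 0.969), and Dock8 and Abcg1 for Tlr9 (0.973 and 0.953). For Sting1 they were Lamp2 and Pros1 (0.979 and 0.976), for Irf5 Slc29a3 and Sox4 (0.98 each), and for Tbk1 Agpat4 and Fyb1 (0.934 and 0.931). For Cgas, Snrnp40 and Trim56 reached 0.904 and 0.896, and for Unc93b1, Sumf1 and Gpr180 reached 0.934 and 0.916. Ikbke and Irf3 had no partner above 0.836 (Mrps23 and Trmt1 led).

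Of 13 genes of other nucleic acid receptors and RNA-activated enzymes tested, LPS raised 9 and lowered 0 in irradiated rats (17% and 14.5% of all genes) and raised 7 and lowered 2 in sham rats (15.2% and 14.5%). Irradiation raised 12 and lowered 1 with LPS (15.1% and 12.6% of all genes), and raised 9 and lowered 0 with PBS (11.5% and 9.91%). Tlr8, which encodes another endosomal RNA receptor, stood at 52.7 to 73.2 CPM in irradiated LPS, 109 to 166 in irradiated PBS, 1.09 to 7.9 in sham LPS and 13.3 to 20.2 in sham PBS libraries. Irradiation raised it by 3.95 ± 0.46 with LPS (edgeR adjusted p = 1.71e-05) and by 3.00 ± 0.43 with PBS (0.000154), while Tlr7 fell in the same comparisons. LPS lowered Tlr8 in sham rats (-2.01 ± 0.45, edgeR adjusted p = 0.00351), and in irradiated rats the value was -1.06 ± 0.39 (0.0556). Aim2, which encodes an inflammasome sensor of cytosolic DNA, rose with irradiation by 2.55 ± 0.25 with LPS and by 1.57 ± 0.24 with PBS. Tlr13, whose row carries an older clone-based symbol paired with it in RefSeq and whose mouse protein binds bacterial ribosomal RNA, rose with LPS by 0.51 ± 0.09 in irradiated and 1.02 ± 0.09 in sham rats (row AABR07039446.2). Eif2ak2, which encodes the RNA-activated kinase PKR, rose with LPS by 1.82 ± 0.18 in irradiated and 1.57 ± 0.18 in sham rats, and Zc3hav1, which encodes an antiviral zinc finger protein, by 1.05 ± 0.11 and 0.62 ± 0.11 in the same order. Ifih1, which encodes the RNA sensor MDA5, rose with LPS by 1.68 ± 0.20 in irradiated and 1.02 ± 0.20 in sham rats. Oas1a, an oligoadenylate synthase gene, rose with irradiation by 2.88 ± 0.42 with LPS and 2.97 ± 0.44 with PBS. The helicase gene Ddx41 rose by 0.85 ± 0.11 and 0.65 ± 0.11 in the same order. Oas1a and its close paralogs may share reads.

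**Figure D3:**
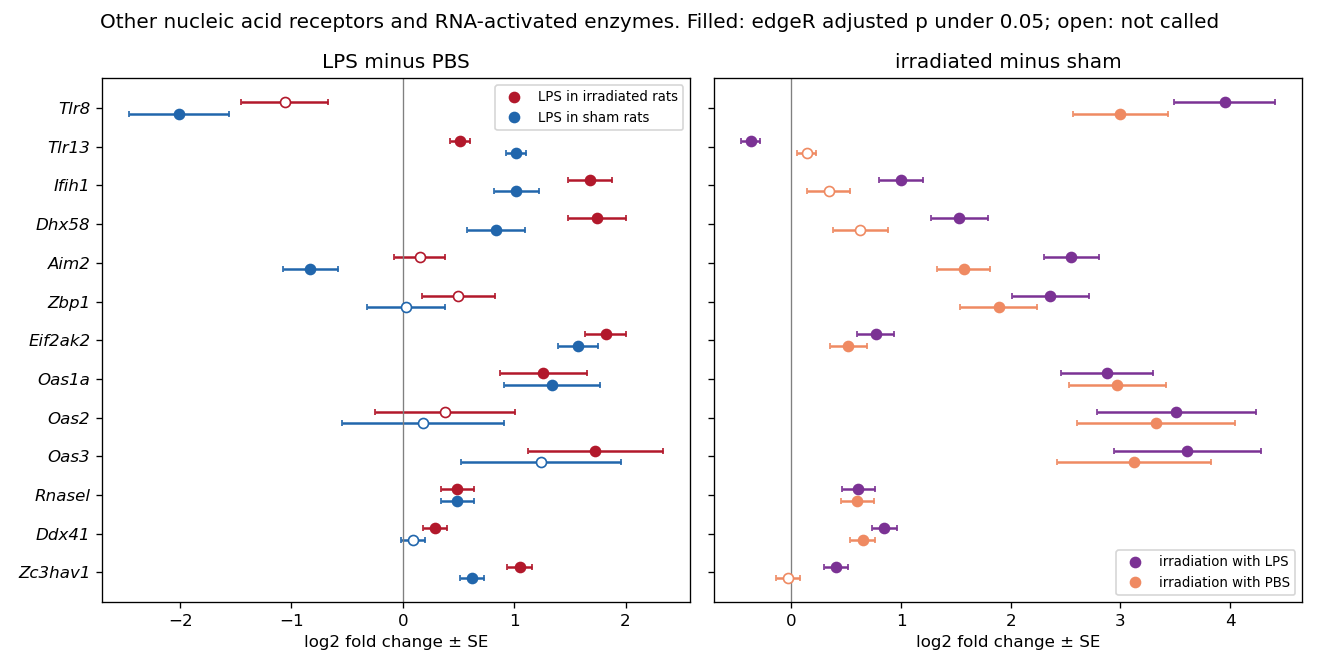
Log2 fold change ± SE of 13 other nucleic acid receptor and RNA-activated enzyme genes for LPS minus PBS (left) and irradiated minus sham (right), with filled points for an edgeR adjusted p under 0.05. Tlr8 is at 3.95 and 3.00 for irradiation with LPS and with PBS.

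Of 14 genes of endosomal receptor folding, trafficking and ligand processing tested, irradiation raised 1 and lowered 5 with LPS (15.1% and 12.6% of all genes) and raised 1 and lowered 6 with PBS (11.5% and 9.91%). LPS raised 1 and lowered 1 in irradiated rats (17% and 14.5% of all genes) and raised 2 and lowered 2 in sham rats (15.2% and 14.5%), shares near or below those of all genes. Ctss, which encodes an endosomal protease that processes these receptors, fell with irradiation (-0.77 ± 0.09 with LPS and -0.74 ± 0.09 with PBS), as did the protease gene Ctsl (-1.12 ± 0.14 and -0.83 ± 0.14). The asparagine endopeptidase gene Lgmn fell with irradiation and PBS (-0.59 ± 0.08) and with LPS in sham rats (-0.38 ± 0.08). Tasl, whose protein links endosomal receptors to IRF5, had 61.2 to 87.4 CPM in irradiated LPS against 12 to 31.8 CPM in sham LPS libraries, a rise of 1.76 ± 0.21 (edgeR adjusted p = 6.97e-06). It rose by 1.00 ± 0.21 with irradiation and PBS. Slc15a4, the transporter gene whose protein binds TASL, fell with irradiation and PBS (-0.47 ± 0.11) and rose with LPS in irradiated rats by 0.49 ± 0.11. Irradiated LPS and sham LPS were not called different for Slc15a4 (0.11 ± 0.11, edgeR adjusted p = 0.522). The related Slc15a3 rose with LPS in sham rats by 0.52 ± 0.11. Lrrc59 rose with LPS in sham rats by 0.59 ± 0.16, and the receptor chaperone gene Cnpy3 fell with LPS in irradiated rats (-0.28 ± 0.07). In these LPS comparisons the groups overlapped for Slc15a4 and Lrrc59.

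Of 24 nucleases and regulators of the cGAS-STING branch, LPS raised 7 and lowered 3 in irradiated rats (17% and 14.5% of all genes) and raised 8 and lowered 4 in sham rats (15.2% and 14.5%), the lowered shares being near those of all genes. Irradiation raised 7 and lowered 3 with LPS (15.1% and 12.6% of all genes) and raised 7 and lowered 1 with PBS (11.5% and 9.91%). Trex1, which encodes the exonuclease that removes cytosolic DNA, had 138 to 167 CPM in irradiated LPS, 41.3 to 57.8 in irradiated PBS, 33.4 to 92.1 in sham LPS and 20.7 to 23.2 in sham PBS libraries, and rose in all 4 comparisons by 1.26 ± 0.21 to 1.58 ± 0.21. Samhd1, a nucleotide hydrolase gene, had 494 to 1100 CPM in irradiated LPS against 48.3 to 73.8 CPM in irradiated PBS libraries, a rise of 3.77 ± 0.42 (edgeR adjusted p = 1.11e-05). It rose by 2.99 ± 0.40 with irradiation in rats given LPS, and by 1.66 ± 0.39 with LPS in sham rats, where the groups overlapped. Lrrc8a, which encodes a channel subunit that passes cGAMP, rose with LPS by 1.83 ± 0.21 in irradiated and 2.30 ± 0.21 in sham rats. Npc1, a lysosomal cholesterol transporter gene, fell with irradiation (-0.98 ± 0.18 with LPS and -1.06 ± 0.18 with PBS). Trim56 rose with LPS by 1.12 ± 0.21 in irradiated and 1.17 ± 0.21 in sham rats. Smpdl3a, whose protein degrades cGAMP, rose with irradiation and PBS by 0.93 ± 0.18.

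Of 15 TBK1 adaptor and other interferon regulatory factor genes tested, LPS raised 8 and lowered 1 in irradiated rats (17% and 14.5% of all genes) and raised 6 and lowered 1 in sham rats (15.2% and 14.5%). Irradiation raised 4 and lowered 2 with LPS (15.1% and 12.6% of all genes) and raised 2 and lowered 2 with PBS (11.5% and 9.91%), the counts with PBS being near the shares of all genes. Tank, a TBK1-binding adaptor gene, rose with LPS by 1.42 ± 0.15 in irradiated and 0.63 ± 0.15 in sham rats. Irradiation raised Tank by 1.22 ± 0.15 with LPS and by 0.43 ± 0.15 with PBS. Irf1 rose with LPS by 2.36 ± 0.17 in irradiated and 2.51 ± 0.18 in sham rats. Irf2bp2, a corepressor gene, rose by 1.05 ± 0.08 and 1.39 ± 0.08 in the same comparisons. Irf7, the factor gene that amplifies type I interferon, had 315 to 561 CPM in irradiated LPS, 101 to 133 in irradiated PBS, 20.3 to 131 in sham LPS and 10.6 to 26.6 in sham PBS libraries. Irradiation raised it by 2.49 ± 0.44 with LPS and by 2.73 ± 0.45 with PBS. Irf2 fell with irradiation (-0.54 ± 0.09 with LPS and -0.35 ± 0.09 with PBS) and rose with LPS, by 0.53 ± 0.09 in irradiated and 0.72 ± 0.09 in sham rats. Tax1bp1 fell with irradiation and PBS (-0.29 ± 0.07).

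Of 12 adaptor and proximal kinase genes tested, LPS raised 6 and lowered 0 in irradiated rats (17% and 14.5% of all genes) and raised 4 and lowered 1 in sham rats (15.2% and 14.5%). Irradiation raised 2 and lowered 0 with LPS (15.1% and 12.6% of all genes) and raised 0 and lowered 1 with PBS (11.5% and 9.91%), with the 2 raised and the 1 lowered near the shares of all genes. Myd88, the adaptor gene of TLR7 and TLR9, rose with LPS by 0.75 ± 0.09 in irradiated and 0.68 ± 0.09 in sham rats. The kinase gene Irak2 rose with LPS by 0.67 ± 0.13 in irradiated and 0.38 ± 0.13 in sham rats, with overlapping groups in the latter. It also rose by 0.54 ± 0.13 with irradiation in rats given LPS. Irak4 rose with LPS by 0.46 ± 0.13 in irradiated and 0.51 ± 0.13 in sham rats, and Chuk by 0.42 ± 0.11 in each. Traf6, a ubiquitin ligase gene, fell with irradiation and PBS (-0.47 ± 0.11). Traf3 fell with LPS in sham rats (-1.07 ± 0.28) and rose by 0.84 ± 0.28 with irradiation in rats given LPS, with overlapping groups in both comparisons.

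Type I interferon genes themselves had few or no counts. Ifnb1 had 5, 24, 0 and 2 counts in irradiated LPS libraries, 0, 0, 0 and 4 in irradiated PBS, 0 in each of the 4 sham LPS libraries and 0, 1, 0 and 1 in sham PBS. Ifna1 had 0 counts in all libraries, Ifna4 had at most 2 and Ifnk at most 12 in a library. These genes did not pass the filter on low counts. Of 7 receptor and downstream genes tested, LPS raised 5 and lowered 1 in irradiated rats (17% and 14.5% of all genes) and likewise in sham rats (15.2% and 14.5%), the 1 lowered being near the share of all genes. Irradiation raised 3 with LPS (15.1% of all genes) and 2 with PBS (11.5%) and lowered 0. The interaction term called 1 of the 7 higher and 0 lower (0.61% and 0.647% of all genes), and 0 genes in each of the other lists. The receptor gene Ifnar1 rose with irradiation by 0.72 ± 0.09 with LPS and 0.66 ± 0.09 with PBS. Ifnar2 rose with LPS by 0.95 ± 0.08 in irradiated and 0.67 ± 0.08 in sham rats, and with irradiation and LPS by 0.38 ± 0.08. Stat2 rose with LPS by 1.37 ± 0.11 and 0.70 ± 0.11 in the same order and with irradiation and LPS by 0.81 ± 0.11. Jak1 rose with LPS by 0.60 ± 0.08 in irradiated and 0.35 ± 0.08 in sham rats. Socs1, a feedback inhibitor gene, rose with LPS by 2.33 ± 0.59 in irradiated and 4.62 ± 0.69 in sham rats. It rose by 2.30 ± 0.68 with irradiation and PBS, where the groups overlapped. Its levels were 2.92 to 7.54 CPM in irradiated LPS, 0.388 to 1.68 in irradiated PBS, 2 to 9.75 in sham LPS and 0.046 to 0.445 in sham PBS libraries.

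**Figure D4:**
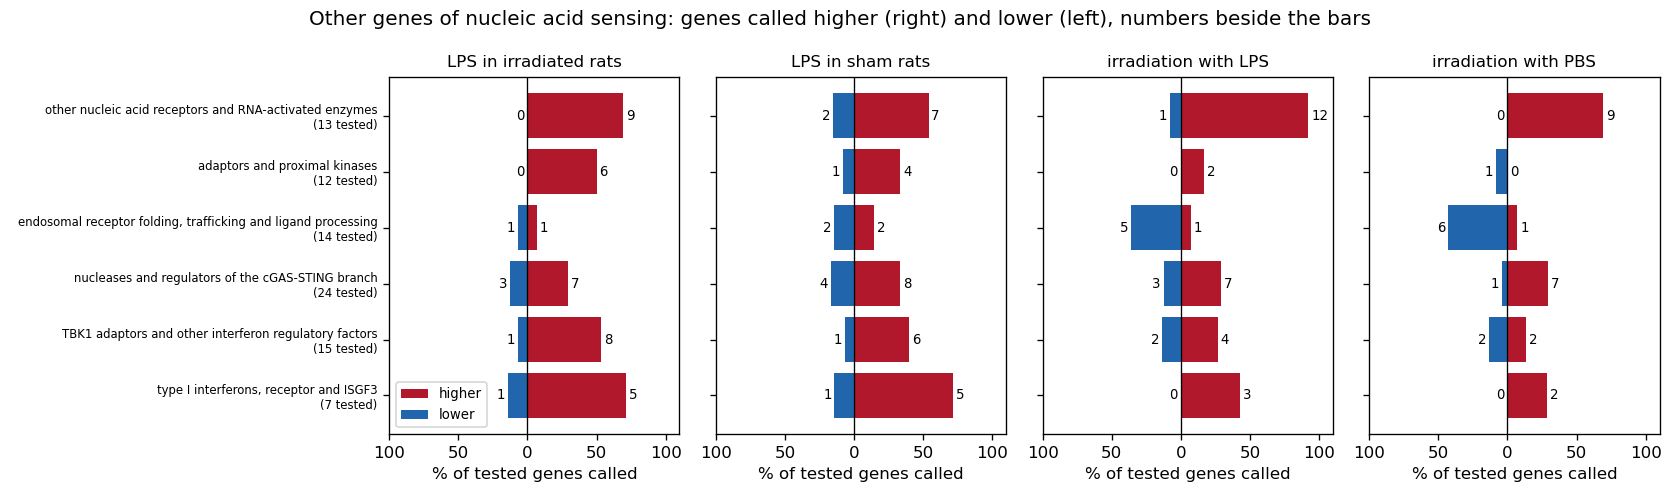
Share of the tested genes of 6 lists called higher (right of 0) or lower (left of 0) in 4 comparisons, with the number of genes beside each bar. The receptor list has 12 of 13 genes higher for irradiation with LPS, and the folding, trafficking and processing list has 6 of 14 lower for irradiation with PBS.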

How the data were processed

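RNA of sorted rat microglia was sequenced in 16 libraries. Per the submitters' processing notes, the authors used FastQC 0.11.9, fastp 0.23.2 and HTSeq 2.0.2 with build mRatBN7.2 (the sources used here name no aligner, annotation release or strand setting). The authors deposited raw counts per gene, and the deposited series count table matched the counts of the single libraries, with 0 of 349472 cells differing. Counts per Ensembl gene from all 16 libraries, after filterByExpr and TMM scaling, went into the robust quasi-likelihood test of edgeR 4.0.16 (R 4.3.3) with 1 coefficient a group, and p-values were adjusted by Benjamini-Hochberg over the 13608 genes tested, with calls under 0.05. Alternatives used DESeq2 1.42.0, limma 3.58.1 (voom with sample weights), other scalings and filters, a replicate block and omission of libraries. All 10 genes are named in every comparison, and of each pathway list up to 3 called genes with the smallest p a comparison. Members and lists were chosen with earlier results of these data known. The listed genes Rigi, Oas1b, Ticam1 and Rnaseh2c were not analysed here. Any 2 replicates of a group differed by more than sampling noise.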

Additional observations from a re-analysis of the deposited data

Results flagged for a closer look

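Tbk1 in irradiated PBS library 4 stood at 55.5 CPM, apart from the other 3 libraries of its group, which lay between 64.2 and 65.7 CPM. The gap was large for a group of 4 libraries by Dixon's criterion. It was the only one among 40 groups examined (10 genes in 4 groups), and chance flags about 1 in 20 groups.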

How the results depend on the processing

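Over up to 26 alternatives the number of the 10 genes called was 5 to 7 for LPS in irradiated rats, 5 to 7 for LPS in sham rats, 5 for irradiation with LPS and 4 to 5 for irradiation with PBS, and the interaction called 0 throughout. The counts in this paragraph describe only how stable the calls were. They are not set against the share of all genes called under each alternative. The labels do not say what a replicate number marks, so the numbers were not treated as pairs in the main test. Of 24 same-numbered pairs 10 had a correlation of deviations over 0.1. The correlations of same-numbered pairs (-0.0887 to 0.405) reached higher than the others (-0.287 to 0.199). In addition, 11 of 16 libraries correlated best with their own number, a hint from the data of shared structure that the main p-values leave out. With the replicate block 6, 6, 5 and 4 of the 10 genes were called in the same order, 6 for both factors against neither, 5 for irradiation alone against LPS alone and 0 for the interaction. Tbk1 gained a call for LPS in sham rats with voom (0.33, adjusted p = 0.041), without irradiated LPS library 3 (0.30, 0.0409) and without sham PBS library 1 (0.40, 0.0185), and for irradiation with PBS with library totals alone (0.44, 0.0171) and without sham PBS library 1 (0.39, 0.0299). With library totals alone Unc93b1 gained a call for LPS in irradiated rats (-0.32, 0.0415). Library totals shifted the median of all genes to -0.139 for LPS in irradiated rats, 0.151 for irradiation with PBS and 0.227 for irradiation alone against LPS alone. Cgas in irradiation alone against LPS alone was also not called with no filter on low counts (0.0553), with only the groups compared (0.0584) or without both irradiated libraries numbered 1 (0.0671). Values that changed sign were all uncalled. For LPS in sham rats these were Sting1 (0.00 with DESeq2 and RLE factors, 0.01 with only the groups compared) and Unc93b1 (0.00 with voom, the replicate block and only the groups compared). With library totals alone they were Sting1 (-0.09) and Irf3 (-0.07) for LPS in irradiated rats, Tlr9 for irradiation with PBS (0.14), Irf3 for irradiation with LPS (0.06) and Sting1 for the interaction (-0.05). Without both irradiated libraries numbered 1 they were Irf3 for LPS in irradiated rats (-0.11), Tlr9 for irradiation with PBS (0.02), Cgas for irradiation with LPS (-0.09) and Tlr7 for the interaction (0.01). The rest were Unc93b1 (-0.01, no filter) and Tlr9 (0.01, only the groups compared) for irradiation with PBS, and Tlr7 for the interaction (0.02 with no filter, 0.00 with the replicate block and with counts summed per symbol). Leaving out single libraries, the ranges that crossed 0 were, for LPS in irradiated rats, Ikbke -0.35 to 0.08, Irf3 -0.04 to 0.15 and Sting1 -0.04 to 0.09, and for LPS in sham rats Sting1 -0.03 to 0.02 and Unc93b1 -0.14 to 0.08. For irradiation with LPS they were Cgas -0.25 to 0.71, Irf3 -0.09 to 0.06 and Tlr9 -0.40 to 0.09, and for irradiation with PBS Tlr9 -0.12 to 0.10 and Unc93b1 -0.12 to 0.10. For the interaction they were Cgas -0.87 to 0.09, Sting1 -0.03 to 0.10, Tlr3 -0.14 to 0.02, Tlr7 -0.07 to 0.08 and Tlr9 -0.37 to 0.10. The cause of these changes was not tested. Calls for Cgas and Ikbke rest on low counts.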
